A study of Mus musculus with 9 samples.

Results

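The proteasome is the protease that degrades ubiquitin-tagged proteins, and 50 of the 35315 genes in a colon expression table were examined as its gene module. They were chosen by symbol: every row whose symbol begins with Psma, Psmb, Psmc, Psmd, Psme, Psmf or Psmg followed by a digit. A further 3 rows with such symbols are annotated as pseudogenes and were left out. RNA was measured in colon of 8-week-old wild-type C57BL/6J mice, with 3 libraries in each of 3 groups. GsMTx4 mice drank 2.5% dextran sulfate sodium (DSS) for 7 days and received GsMTx4 by vein at 10 mg/kg on days 2, 4 and 6. DSS mice drank the same water and received solvent on those days. Control mice drank plain water, and no injection is listed for them, so DSS and injection cannot be told apart in a comparison with Control. DSS is a polymer that damages the colonic epithelium, and GsMTx4, a peptide from spider venom, blocks cation channels gated by mechanical force. Whether the libraries of a group come from separate mice is not stated, and the p-values cover only library-to-library spread, which may be technical.

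The proteasome has a barrel-shaped core, the 20S particle, built of outer rings of alpha subunits (Psma genes) and inner rings of beta subunits (Psmb genes), of which Psmb5, Psmb6 and Psmb7 encode the catalytic ones. Interferon gamma induces Psmb8, Psmb9 and Psmb10, whose products take the places of those of Psmb5, Psmb6 and Psmb7 in newly built particles, giving the immunoproteasome, which favours peptides that fit MHC class I molecules. The 19S cap (Psmc ATPases and Psmd subunits) binds and unfolds tagged proteins, the PA28 activator (Psme1 and Psme2) opens the core without ubiquitin, and Psmg chaperones build the core. In gut, immunoproteasome subunits are found both in leukocytes and in epithelium.

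The values are FPKM, fragment numbers divided by transcript length and by library size. The lengths used are not given, so levels of different genes can be set side by side only roughly. The depth in reads is unknown. FPKM summed to between 349125 and 440935 per library, with the highest sum in GsMTx4 3. The 8 colon epithelial markers were all present and summed to 5378 to 6879 FPKM in GsMTx4 libraries, 5245 to 7643 in DSS libraries and 5416 to 6680 in Control libraries. The 6 leukocyte markers summed to 116 to 176 FPKM in GsMTx4 libraries, 207 to 273 in DSS libraries and 129 to 146 in Control libraries. The DSS libraries were therefore above both other groups in leukocyte markers, without overlap. No marker of either list was at 0 in all libraries.

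Of the 50 genes, 48 passed the filter (3 or more libraries with FPKM of 1 or more) and were tested. Psma8, the testis-specific alpha subunit, was at 0.0227 to 0.134 FPKM. Psmb11, the catalytic subunit of the thymus, was listed at 0 in 7 libraries and at 0.0195 and 0.0182 FPKM in DSS 2 and DSS 3. Both genes stayed under the filter. Of the tested genes, Psmc3ip and Psme2b are of doubtful standing.

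Psmc3ip fits the symbol pattern but encodes a cofactor of meiotic recombination and is no subunit. Psme2b is a near-identical copy of Psme2: their transcripts were 99.37% identical over 794 aligned bases, against 68.85% over 671 bases for Psme2 and Psme1, so reads of Psme2 and Psme2b cannot be told apart with confidence.

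No proteasome gene passed the test in any of the comparisons. In the limma fit of log2(FPKM + 1) over all 9 libraries, with Benjamini-Hochberg adjustment over all 14360 tested genes and a call at an adjusted p under 0.05, 0 of 48 genes were called higher and 0 lower in DSS against Control, in GsMTx4 against DSS and in GsMTx4 against Control. Of all tested genes, 17.1% were called in DSS against Control, 12.3% in GsMTx4 against DSS and 0.237% in GsMTx4 against Control. At an unadjusted p under 0.05, DSS against Control gave 4 proteasome genes, all lower, where 34.9% of all genes passed. Of the 14360 genes, 3331 were lower and 1683 higher. GsMTx4 against DSS gave 4, all higher, where 30.1% of all genes passed (2463 higher and 1861 lower). GsMTx4 against Control gave 2, both lower, where 10.1% of all genes passed (1055 lower and 401 higher). Any pair of these comparisons shares the libraries of 1 group.

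Fold changes of the proteasome genes were small. In DSS against Control they ran from -0.67 to 0.11 on the log2 scale, with a median of -0.05 against -0.17 over all tested genes. In GsMTx4 against DSS they ran from -0.29 to 0.51, with a median of 0.11 against 0.07 over all genes. In GsMTx4 against Control they ran from -0.56 to 0.25, with a median of 0.03 against -0.08 over all genes. These medians describe the module and carry no test. Their signs near 0 depend on the scaling: the module median in DSS against Control was 0.13 after median-of-ratios scaling, and that in GsMTx4 against Control was -0.06 after TPM rescaling.

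The precision was enough to bound most of the genes. The 95% confidence interval lay within a 2-fold change in either direction for 45 of 48 genes in DSS against Control, where it did so for 68.3% of all tested genes. The exceptions were Psmg2, Psma1 and Psmb9, whose intervals reached below a 2-fold decrease. In GsMTx4 against DSS, 47 of 48 genes were so bounded, against 71.0% of all genes, the exception being Psmb9 with an interval of -0.34 to 1.07. In GsMTx4 against Control it was 46 of 48, against 82.8% of all genes, the exceptions being Psmg4 and Psmb9. For DSS against Control, no interval of a proteasome gene reached a 2-fold increase.

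**Figure D1:**
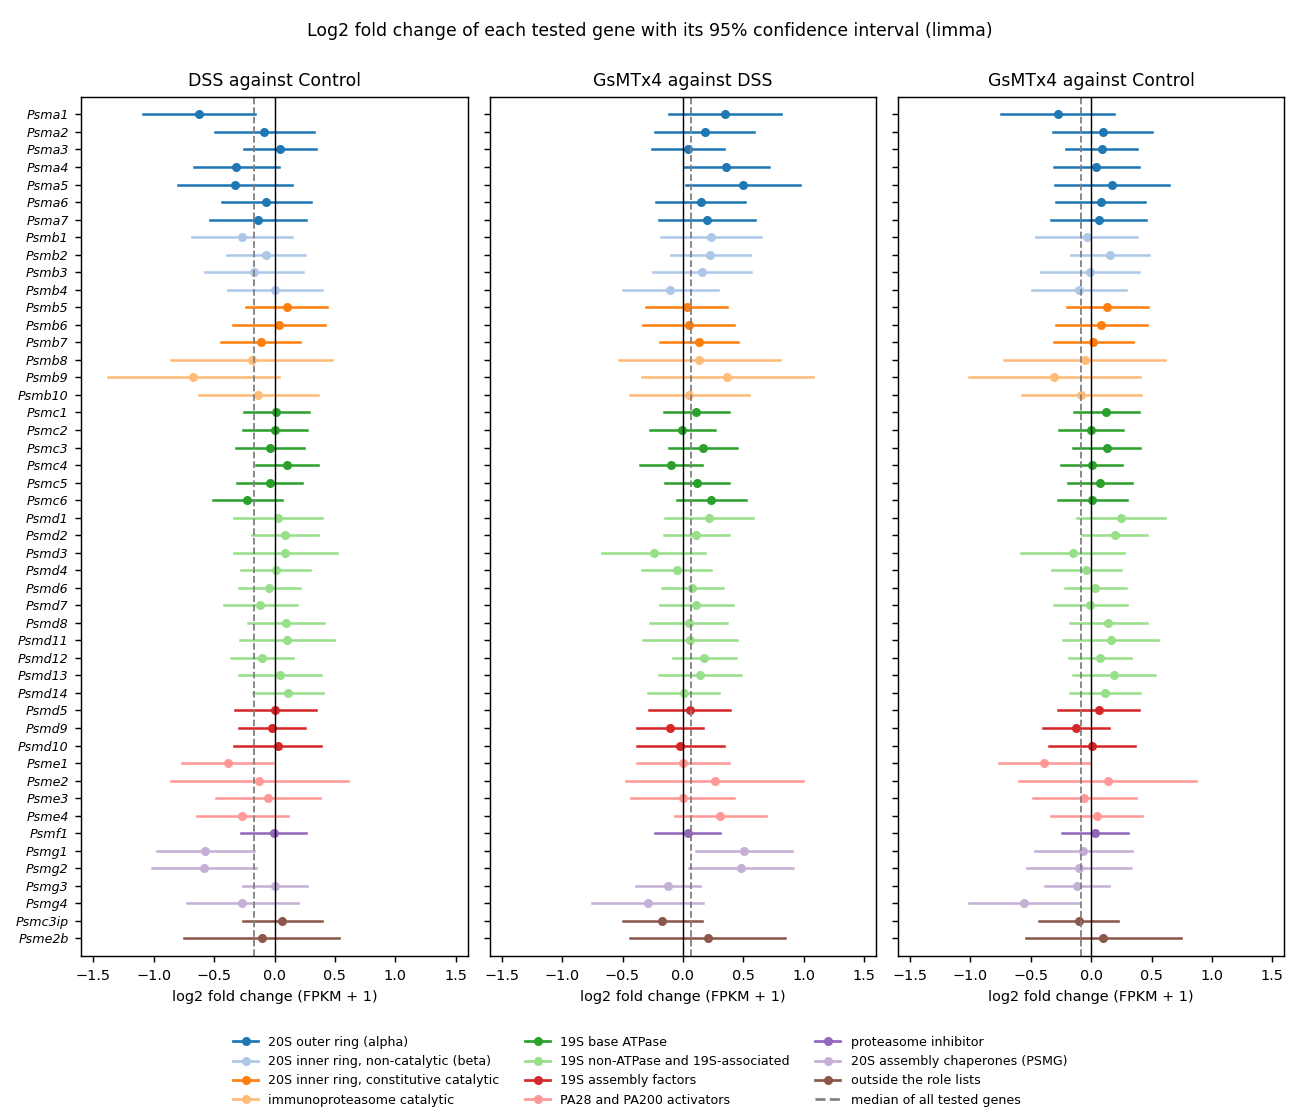
Log2 fold change on the log2(FPKM + 1) scale (points) with 95% confidence intervals (lines) of the 48 tested proteasome genes in the 3 comparisons, coloured by role; the dashed line is the median of all tested genes. The points stay between -0.67 and 0.51, and the widest intervals belong to Psmb9, Psme2, Psmb8 and Psme2b.

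The inducible catalytic subunits come first. Psmb8 and Psmb9 lie beside the peptide transporter genes Tap1 and Tap2 in the MHC region: Psmb9 at chr17:34181987-34187764 on the minus strand and Psmb8 at chr17:34197721-34201454 on the plus strand (GRCm38). Psmb10 lies at chr8:105935735-105938444, minus strand. Psmb7 had no promoter entry. The promoters of Psmb8, Psmb9, Psmb10, Psmb5 and Psmb6 are shown because interferon-responsive promoter sequence is a known route to induction of the inducible genes. Each is the RefSeq window on GRCm38.p6 from 250 bases before to 50 bases after the RefSeq start, read 5′ to 3′ on the gene's strand, and capitals mark matches to the motifs searched.
Psmb8, chr17:34197945-34198244, plus strand: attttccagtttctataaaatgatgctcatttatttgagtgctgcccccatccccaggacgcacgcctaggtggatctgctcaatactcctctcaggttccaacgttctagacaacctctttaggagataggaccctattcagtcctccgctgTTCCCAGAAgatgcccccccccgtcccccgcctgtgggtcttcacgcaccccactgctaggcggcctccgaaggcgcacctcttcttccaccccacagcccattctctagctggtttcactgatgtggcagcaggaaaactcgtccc
Psmb9, chr17:34187281-34187580, minus strand: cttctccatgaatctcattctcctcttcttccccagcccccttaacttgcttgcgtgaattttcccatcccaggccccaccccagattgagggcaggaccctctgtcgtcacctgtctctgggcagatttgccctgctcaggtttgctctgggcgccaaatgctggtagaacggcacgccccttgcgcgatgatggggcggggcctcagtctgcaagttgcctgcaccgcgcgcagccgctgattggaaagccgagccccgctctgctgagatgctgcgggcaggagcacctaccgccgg
Psmb10, chr8:105938343-105938642, minus strand: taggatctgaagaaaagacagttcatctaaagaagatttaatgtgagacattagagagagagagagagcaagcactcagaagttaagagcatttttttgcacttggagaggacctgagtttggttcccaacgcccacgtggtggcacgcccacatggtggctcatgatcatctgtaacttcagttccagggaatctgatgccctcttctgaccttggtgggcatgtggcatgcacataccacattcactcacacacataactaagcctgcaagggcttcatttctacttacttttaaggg
Psmb5, chr14:54617946-54618245, minus strand: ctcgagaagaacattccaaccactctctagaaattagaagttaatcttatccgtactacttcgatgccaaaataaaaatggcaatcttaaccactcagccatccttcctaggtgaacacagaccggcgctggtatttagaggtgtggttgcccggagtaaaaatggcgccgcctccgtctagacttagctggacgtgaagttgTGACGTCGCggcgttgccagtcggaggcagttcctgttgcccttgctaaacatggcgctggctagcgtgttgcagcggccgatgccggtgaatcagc
Psmb6, chr11:70525107-70525406, plus strand: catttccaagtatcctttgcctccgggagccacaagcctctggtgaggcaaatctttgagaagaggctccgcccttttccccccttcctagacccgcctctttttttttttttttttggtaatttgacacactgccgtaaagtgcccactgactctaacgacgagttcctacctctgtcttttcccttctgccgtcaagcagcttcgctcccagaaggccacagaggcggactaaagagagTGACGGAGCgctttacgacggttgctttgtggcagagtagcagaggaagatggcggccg

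The motifs were searched on both strands. They were GAAANNGAA, the core of the interferon-stimulated response element, TTCNNNGAA, the gamma-activated sequence, and TGACNNNGC, the core of the antioxidant response element, which NRF factors bind. Psmb8 held 1 gamma-activated sequence, beginning at position -97 from the RefSeq start. Psmb5 held 1 antioxidant element core at position -47, and Psmb6 held 1 at position -9. The windows of Psmb9 and Psmb10 held no match to these letters. Those of Psmb8 and Psmb9 lie wholly inside the gene spans given above. Sequence upstream of the annotated starts of Psmb8 and Psmb9 was thus not searched. Over all 32851 promoters in the table, 8.56% held GAAANNGAA, 8.30% TTCNNNGAA and 12.4% TGACNNNGC, and counted by gene the shares were 9.76%, 9.55% and 14.0% of 27025 genes. Of the 42 proteasome genes with a window, 7, 3 and 6 held them in that order. A match is a description of the letters, not of binding. The Psmb9 and Tap1 windows are the same DNA over 275 bases (chr17:34187306-34187580), read in opposite directions.

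Psmb8 was at 44.7, 45.1 and 80.1 FPKM in GsMTx4 libraries, 38.4, 74.1 and 42.5 in DSS libraries and 67.0, 49.4 and 54.8 in Control libraries. GsMTx4 3 and DSS 2 stood above every Control library, while the other 4 libraries of these groups lay below every Control library. The groups overlapped in all comparisons. The log2 fold change was -0.19 ± 0.30 in DSS against Control (SE, limma adjusted p = 0.668), 0.14 ± 0.30 in GsMTx4 against DSS (adjusted p = 0.793) and -0.05 ± 0.30 in GsMTx4 against Control (adjusted p = 0.969).

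Psmb9 was at 26.8, 28.8 and 58.7 FPKM in GsMTx4 libraries, 20.3, 38.3 and 26.4 in DSS libraries and 51.4, 40.2 and 42.2 in Control libraries. All 3 DSS libraries lay below all Control libraries, and GsMTx4 3 was the highest of the 9. It had the most negative fold change of the module in DSS against Control, -0.67 ± 0.31 (unadjusted p = 0.0598, adjusted p = 0.160), which did not pass. Without Control 1, DSS 2 and GsMTx4 3, the libraries highest in core subunits in their groups, it was -0.80 (adjusted p = 0.0382); that choice followed the values and narrows the spread by construction. GsMTx4 against DSS gave 0.37 ± 0.31 (adjusted p = 0.464) and GsMTx4 against Control -0.31 ± 0.31 (adjusted p = 0.780).

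Psmb10 was at 81.7, 77.0 and 105 FPKM in GsMTx4 libraries, 65.2, 114 and 79.8 in DSS libraries and 103, 82.8 and 92.9 in Control libraries. DSS held both the lowest and the highest library, and the groups overlapped. The fold change was -0.13 ± 0.22 in DSS against Control (adjusted p = 0.678), 0.05 ± 0.22 in GsMTx4 against DSS (adjusted p = 0.899) and -0.08 ± 0.22 in GsMTx4 against Control (adjusted p = 0.926). None of the inducible catalytic genes was thus called. Sums of leukocyte, B and plasma cell, monocyte and macrophage, and neutrophil markers were higher in DSS than in Control without overlap. T cell marker sums overlapped, at 25.73 to 47.88 FPKM in DSS and 26.15 to 33.08 in Control. The library highest in the inducible subunits was GsMTx4 3 in GsMTx4, DSS 2 in DSS and Control 1 in Control. The leukocyte sum was the highest of the group in GsMTx4 3 (176 FPKM, against 126 and 116 in GsMTx4 1 and GsMTx4 2), the lowest in DSS 2 (207 FPKM, against 273 and 249.7 in DSS 1 and DSS 3) and the highest in Control 1 (146 FPKM, against 129 and 134 in Control 2 and Control 3). The sum of the 6 monocyte and macrophage markers was 430 FPKM in GsMTx4 3 (452 and 369 in GsMTx4 1 and GsMTx4 2), 721 in DSS 2 (617 and 712 in DSS 1 and DSS 3) and 372 in Control 1 (274 and 232 in Control 2 and Control 3). The epithelial sum was the highest of its group in all 3 of these libraries (6879, 7643 and 6680 FPKM). So was the FPKM sum over all genes. The part of cell makeup in these values was not tested, and in bulk tissue fewer cells of a type and less RNA per cell cannot be told apart.

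The constitutive partners were steadier. Psmb5, the chymotrypsin-like subunit, was at 77.2, 92.0 and 101 FPKM in GsMTx4 libraries, 85.0, 94.9 and 83.2 in DSS libraries and 89.7, 81.3 and 74.3 in Control libraries. Psmb6, the caspase-like subunit, was at 36.7, 43.7 and 54.1 FPKM in GsMTx4 libraries, 38.8, 47.5 and 42.5 in DSS libraries and 46.9, 40.5 and 38.1 in Control libraries. Psmb7, the trypsin-like subunit, was at 27.4, 32.8 and 33.8 FPKM in GsMTx4 libraries, 27.4, 31.6 and 26.3 in DSS libraries and 35.2, 29.6 and 28.0 in Control libraries. The groups overlapped for all 3 genes, and their log2 fold changes lay between -0.12 and 0.13 over the 3 comparisons, with adjusted p-values from 0.573 to 0.982.

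**Figure D2:**
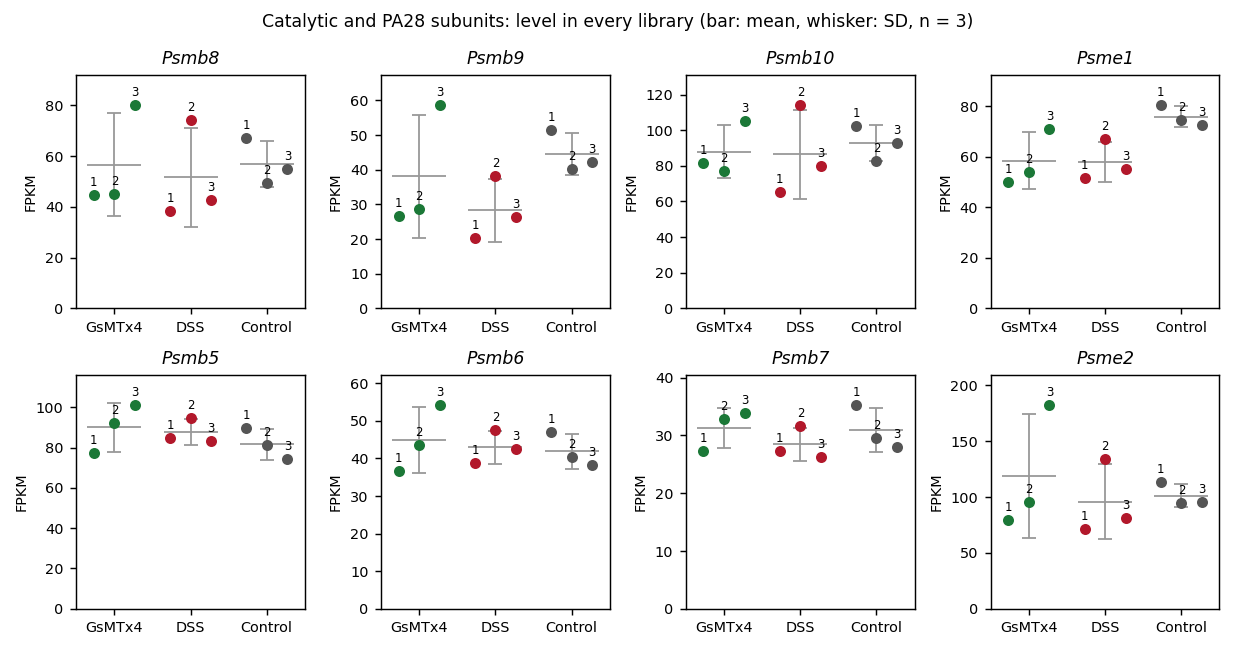
FPKM of the inducible catalytic subunits Psmb8, Psmb9 and Psmb10, their constitutive partners Psmb5, Psmb6 and Psmb7, and the PA28 subunits Psme1 and Psme2 in each library (points, numbered by replicate), with mean and SD (n = 3 libraries a group). GsMTx4 3 and DSS 2 stand highest in their groups in every panel, and for Psme1 the DSS and GsMTx4 points all lie below Control.

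The ratio of an inducible subunit to the partner it replaces was taken within a library. Library scaling cancels in it, while the transcript lengths used for FPKM do not. Psmb8 over Psmb5 was 0.579, 0.490 and 0.793 in GsMTx4 libraries, 0.452, 0.781 and 0.511 in DSS libraries and 0.747, 0.607 and 0.737 in Control libraries. Psmb8 FPKM was below Psmb5 FPKM in all 9. Psmb9 over Psmb6 was 0.731, 0.659 and 1.08 in GsMTx4 libraries, 0.523, 0.806 and 0.622 in DSS libraries and 1.09, 0.992 and 1.11 in Control libraries. Here every DSS library lay below every Control library, the single pair of groups among 9 that did not overlap. Psmb10 over Psmb7 was 2.99, 2.35 and 3.11 in GsMTx4 libraries, 2.38, 3.61 and 3.03 in DSS libraries and 2.91, 2.79 and 3.31 in Control libraries, above 1 in all 9.

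The FPKM ratio thus differed between the pairs. On average in Control, the inducible member was at 0.697 ± 0.0779, 1.06 ± 0.0627 and 3.01 ± 0.272 times its partner (SD, n = 3) for Psmb8, Psmb9 and Psmb10. The transcript lengths behind the FPKM are not given, so these levels need not be the balance of RNA molecules between partners. Groups were compared by an exact two-sided permutation test of the log2 ratio, and none of the 9 differences passed. For Psmb9 over Psmb6 in DSS against Control the difference of means was -0.73 (exact permutation p = 0.1, the smallest that 3 against 3 libraries allow, 0.788 after Benjamini-Hochberg adjustment over the 9 ratio tests). The other exact p-values lay between 0.2 and 1. With 3 libraries a group, no ratio could have reached 0.05.

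**Figure D3:**
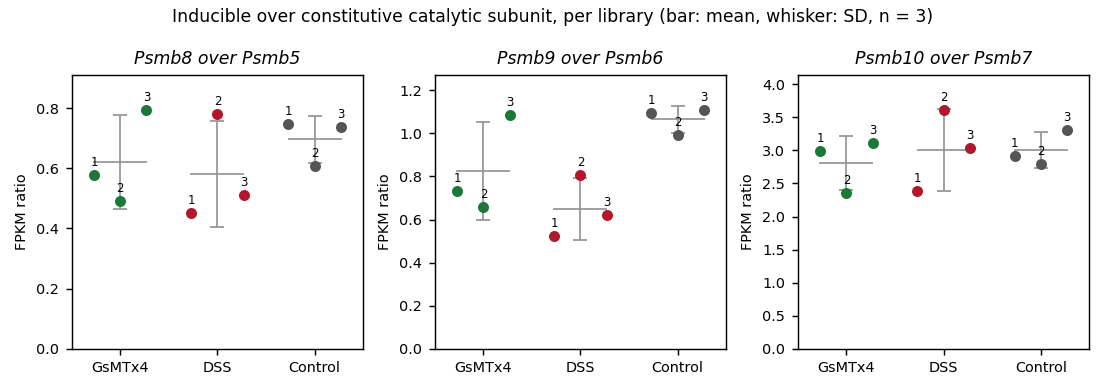
FPKM ratio of each inducible catalytic subunit to its constitutive partner in each library (points, numbered by replicate) with mean and SD (n = 3 libraries a group). Psmb9 over Psmb6 lies between 0.523 and 0.806 in DSS and between 0.992 and 1.11 in Control, and Psmb10 over Psmb7 stays above 1 in every library.

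Psmb8 and Psmb9 were among the proteasome genes with the largest spread within groups. The pooled within-group SD of log2 FPKM had a median of 0.43 over the 3 inducible catalytic genes (0.29 to 0.46), against 0.16 over the 3 constitutive catalytic genes, 0.09 over the 6 Psmc ATPases and 0.20 over all 48 genes. Psme2 had the largest SD of the module (0.47), followed by Psmb9, Psmb8, Psme2b, Psmg4 and Psmb10. On the log2(FPKM + 1) scale, the SD ranked at percentile 84.8 of all tested genes for Psmb8, 87.2 for Psmb9 and 63.3 for Psmb10. For Psmb5, Psmb6 and Psmb7 the percentiles were 18.5, 36.4 and 20.5. These figures are descriptions over genes that share libraries, with no test.

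The PA28 subunits are interferon-inducible as well. Psme1 (chr14:55578123-55581529) was at 50.0, 53.9 and 71.2 FPKM in GsMTx4 libraries, 51.8, 66.9 and 55.2 in DSS libraries and 80.5, 74.5 and 72.5 in Control libraries. Every GsMTx4 and every DSS library lay below every Control library. The fold change was -0.39 ± 0.17 both in DSS against Control (unadjusted p = 0.0447, adjusted p = 0.133) and in GsMTx4 against Control (unadjusted p = 0.0453, adjusted p = 0.479), and neither passed. In DSS against Control it passed after TPM rescaling and quantile normalization (adjusted p = 0.0397 and 0.0392). These comparisons share the Control libraries.

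Psme2 (chr14:55587441-55591113) was at 79.0, 95.3 and 182 FPKM in GsMTx4 libraries, 71.8, 134 and 81.6 in DSS libraries and 114, 94.7 and 95.8 in Control libraries. The groups overlapped, with GsMTx4 3 and DSS 2 above all Control libraries, and the fold changes lay between -0.13 and 0.26 with an SE of 0.33. Its copy Psme2b averaged 115 ± 45.6 FPKM in GsMTx4, 97.1 ± 26.1 in DSS and 103 ± 17.8 in Control (SD, n = 3). Psme3, the nuclear activator subunit, ran from 24.9 to 41.4 FPKM over the 9 libraries and Psme4, which encodes the PA200 activator, from 12.1 to 20.7. Neither was called, and the inhibitor gene Psmf1 stayed between 3.95 and 5.04 FPKM.

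Among the 7 tested alpha subunits, Psma1 had the lowest p in DSS against Control. Psma1 (chr7:114264606-114276118) was at 46.2, 59.9 and 83.9 FPKM in GsMTx4 libraries, 43.2, 53.8 and 48.1 in DSS libraries and 80.3, 71.6 and 73.0 in Control libraries. DSS lay below Control without overlap, and GsMTx4 spanned both. The fold change was -0.63 ± 0.21 in DSS against Control (adjusted p = 0.0653), 0.35 ± 0.21 in GsMTx4 against DSS (adjusted p = 0.293) and -0.28 ± 0.21 in GsMTx4 against Control (adjusted p = 0.687).

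Psma4 was at 41.6, 53.1 and 59.6 FPKM in GsMTx4 libraries, 37.0, 41.0 and 40.3 in DSS libraries and 54.2, 49.2 and 45.1 in Control libraries. DSS lay below both other groups without overlap. The fold change was 0.36 ± 0.16 in GsMTx4 against DSS (unadjusted p = 0.0453, adjusted p = 0.158) and -0.32 ± 0.16 in DSS against Control (adjusted p = 0.178). Psma5 was at 55.7, 62.5 and 86.1 FPKM in GsMTx4 libraries, 43.7, 60.7 and 39.2 in DSS libraries and 65.2, 55.4 and 58.2 in Control libraries, with overlap in all comparisons. It gave 0.50 ± 0.21 in GsMTx4 against DSS (unadjusted p = 0.0399, adjusted p = 0.145).

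The other alpha subunits, Psma2, Psma3, Psma6 and Psma7, overlapped between groups in each comparison. So did the non-catalytic inner-ring genes Psmb1 to Psmb4, of which Psmb2 was at 45.5, 47.9 and 60.3 FPKM in GsMTx4 libraries, 41.5, 47.0 and 41.6 in DSS libraries and 49.1, 45.5 and 42.2 in Control libraries. The adjusted p of Psmb2 was 0.323 in GsMTx4 against DSS and 0.750 in GsMTx4 against Control.

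The 17 genes of the 19S cap had small fold changes. In DSS against Control the 6 Psmc ATPases had fold changes of -0.23 to 0.10 and the 11 non-ATPase subunits of -0.12 to 0.11. Psmc4, an ATPase of the base, was at 27.5, 27.3 and 25.5 FPKM in GsMTx4 libraries, 27.2, 30.9 and 28.1 in DSS libraries and 27.7, 27.1 and 25.3 in Control libraries. Psmd14, the deubiquitinase of the lid, was at 18.9, 23.8 and 21.4 FPKM in GsMTx4 libraries, 20.8, 21.9 and 20.96 in DSS libraries and 21.6, 19.6 and 17.7 in Control libraries. Both overlapped between groups, with fold changes of 0.10 ± 0.11 and 0.11 ± 0.13 in DSS against Control (adjusted p = 0.535 and 0.563).

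The large scaffold subunits of the base stood at the top of the small differences in GsMTx4 against Control. Psmd2 was at 41.9, 42.2 and 35.5 FPKM in GsMTx4 libraries, 36.5, 36.5 and 37.3 in DSS libraries and 36.3, 34.9 and 32.7 in Control libraries. It was the only proteasome gene whose DSS libraries all lay above Control, by 0.09 ± 0.12 (adjusted p = 0.627). Over all 14360 tested genes, 1941 lay above Control in this way and 4818 below. Psmd2 gave 0.20 ± 0.12 in GsMTx4 against Control (adjusted p = 0.612). Psmd1 was at 16.3, 17.4 and 11.5 FPKM in GsMTx4 libraries, 12.8, 11.3 and 14.0 in DSS libraries and 12.8, 12.3 and 11.9 in Control libraries. GsMTx4 1 and GsMTx4 2 were above all other libraries and GsMTx4 3 was near the bottom, and the fold change was 0.25 ± 0.16 in GsMTx4 against Control (adjusted p = 0.633).

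Lid subunits gave small values of both signs. Psmd13 was at 20.5, 23.2 and 24.7 FPKM in GsMTx4 libraries, 18.4, 24.9 and 18.9 in DSS libraries and 21.4, 20.3 and 18.0 in Control libraries. Psmd3 was at 17.6, 19.8 and 12.6 FPKM in GsMTx4 libraries, 22.3, 17.3 and 19.5 in DSS libraries and 20.2, 19.9 and 15.4 in Control libraries. The groups of both overlapped in each comparison. Psmd13 gave 0.19 ± 0.15 in GsMTx4 against Control (adjusted p = 0.715), and Psmd3 -0.24 ± 0.19 in GsMTx4 against DSS (adjusted p = 0.422). The base assembly factors Psmd5, Psmd9 and Psmd10 were not called. Psmd9 was at 2.21, 2.57 and 2.77 FPKM in GsMTx4 libraries, 2.60, 2.82 and 2.90 in DSS libraries and 2.98, 2.66 and 2.86 in Control libraries, with overlapping groups and -0.13 ± 0.12 in GsMTx4 against Control (adjusted p = 0.760).

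The lowest p-values of the module in DSS against Control and in GsMTx4 against DSS belonged to Psmg1, a chaperone that pairs with the product of Psmg2 to assemble the alpha ring. Psmg1 (chr16:95979933-95990960) was at 8.08, 9.38 and 12.3 FPKM in GsMTx4 libraries, 7.32, 6.78 and 5.74 in DSS libraries and 11.8, 10.8 and 8.52 in Control libraries. DSS lay below both other groups without overlap, and GsMTx4 and Control overlapped. The fold change was -0.57 ± 0.18 in DSS against Control (adjusted p = 0.0549), 0.51 ± 0.18 in GsMTx4 against DSS (adjusted p = 0.0935) and -0.07 ± 0.18 in GsMTx4 against Control (adjusted p = 0.926). None passed.

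Psmg2 was at 5.18, 7.62 and 9.34 FPKM in GsMTx4 libraries, 5.48, 4.13 and 5.10 in DSS libraries and 8.01, 8.30 and 7.12 in Control libraries. DSS lay below Control without overlap, while GsMTx4 1 lay within the DSS range. Its fold change was -0.58 ± 0.19 in DSS against Control (adjusted p = 0.0650) and 0.48 ± 0.19 in GsMTx4 against DSS (adjusted p = 0.129). The calls of Psma1, Psmg1 and Psmg2 depended on the setting, as did those of Psme1 and Psmb9 given above: Psma1, Psmg1 and Psmg2 passed in DSS against Control after rescaling to TPM and in a fit of the compared groups only, and Psmg1 passed by a filter at a mean FPKM of 5. Psma1, Psmg1 and Psmg2 also passed when GsMTx4 1 or GsMTx4 3, libraries outside that comparison, was left out of the shared fit, and Psma1 passed after quantile normalization. In GsMTx4 against DSS, Psmg2 passed without GsMTx4 1 (0.68, adjusted p = 0.0311).

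Psmg3 and Psmg4 encode the partner pair of chaperones. Psmg4 was at 8.75, 14.0 and 16.3 FPKM in GsMTx4 libraries, 14.2, 16.5 and 16.3 in DSS libraries and 21.4, 18.0 and 17.8 in Control libraries. Control lay above both other groups without overlap, and the fold change was -0.56 ± 0.20 in GsMTx4 against Control (unadjusted p = 0.0228, adjusted p = 0.407), -0.29 ± 0.20 in GsMTx4 against DSS (adjusted p = 0.373) and -0.27 ± 0.20 in DSS against Control (adjusted p = 0.369). Psmg3 was at 2.86, 3.36 and 2.87 FPKM in GsMTx4 libraries, 3.31, 3.14 and 3.71 in DSS libraries and 3.35, 3.36 and 3.40 in Control libraries, with -0.12 ± 0.12 in GsMTx4 against DSS (adjusted p = 0.522) and overlapping groups there. Psmc3ip, the non-subunit, was at 1.26, 1.11 and 1.33 FPKM in GsMTx4 libraries, 1.79, 1.53 and 1.25 in DSS libraries and 1.67, 1.197 and 1.36 in Control libraries, and its groups overlapped.

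Counting genes whose groups did not overlap, DSS against Control gave 10 of 48, where 47.1% of all tested genes had groups that did not overlap. Over all 14360 tested genes, 1941 were above and 4818 below. Psmd2 was above, and Psma1, Psma4, Psmb9, Psmc6, Psme1, Psme4, Psmg1, Psmg2 and Psmg4 were below. In GsMTx4 against DSS it was 5 genes, all above (Psma4, Psmc1, Psmc5, Psmd12 and Psmg1), where the share of all genes was 30.3%. That share held 2508 genes above and 1841 below. In GsMTx4 against Control it was 2 genes, both below (Psme1 and Psmg4), where the share was 19.6% (718 genes above and 2099 below).

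Inside each group, the core subunits were high in the same library. All 17 tested core subunits, inducible and constitutive, were highest in GsMTx4 3 among GsMTx4 libraries, in DSS 2 among DSS libraries and in Control 1 among Control libraries. Of all tested genes, 32.0% were highest in GsMTx4 3, 23.3% in DSS 2 and 34.9% in Control 1 within their groups. Of the 17 genes of the 19S cap, 5 were highest in GsMTx4 3, 8 in DSS 2 and 14 in Control 1. The median core subunit stood above its group mean by 0.28 in GsMTx4 3, 0.20 in DSS 2 and 0.15 in Control 1 on the log2(FPKM + 1) scale. This pattern was seen in these values and then counted, and it has no test. Each of the named libraries also had the highest FPKM sum of its group. The sums were 440935 in GsMTx4 3 (349796 and 355130 in GsMTx4 1 and GsMTx4 2) and 391435 in DSS 2 (363700 and 373800 in DSS 1 and DSS 3). Control 1 summed to 360694 (351100 and 349125 in Control 2 and Control 3). Ranks were taken on FPKM without rescaling, and the part of library scaling in the core pattern was not tested.

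**Figure D4:**
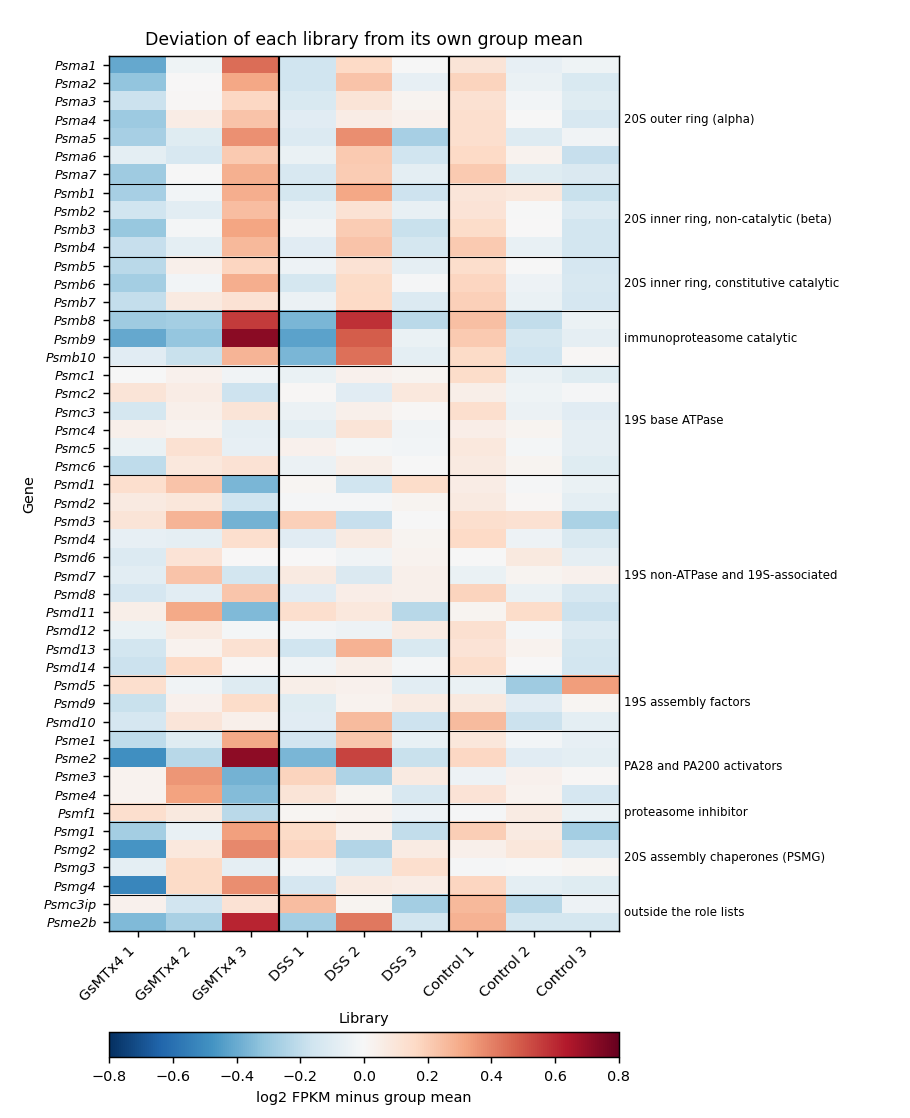
Difference of log2 FPKM in each library from the mean of its own group for the 48 tested proteasome genes (rows, by role) in the 9 libraries (columns). The 17 core subunits (top 4 blocks) are all positive in GsMTx4 3, DSS 2 and Control 1, with the deepest colours in Psmb8, Psmb9, Psme2 and Psme2b.

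These libraries also differed by transcript length. GsMTx4 3 was the highest of its group for 54.2% of tested genes with transcripts under 1000 bases and for 10.4% of those of 4000 bases and over. In DSS 2 it was 35.9% and 9.41%, and in Control 1 40.9% and 25.4%. Core subunit transcripts are short, with a median of 1311 bases (859 to 2911), against 1983 bases (1387 to 3466) for the 19S genes. Length was that of the longest annotated transcript, and the part of length in the core pattern was not tested. The trend of each library with transcript length was removed, a step chosen after the data were seen. After it, 15 of 17 core subunits were highest in GsMTx4 3, 16 in DSS 2 and 17 in Control 1. The shares of all genes were 37.7%, 34.9% and 39.2%. No proteasome gene was called in any comparison after that step.

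**Figure D5:**
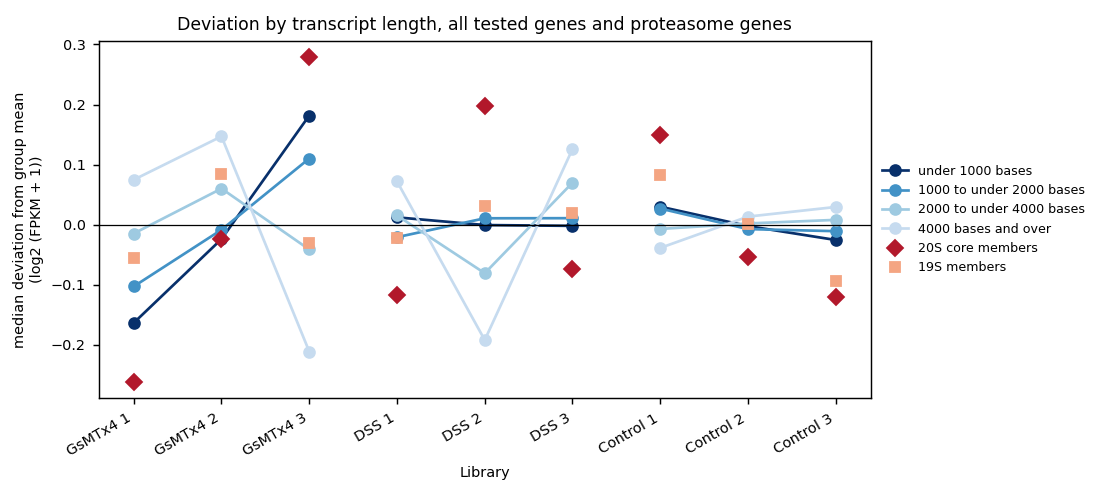
Median deviation of each library from its group mean on the log2(FPKM + 1) scale, for all tested genes in 4 classes of transcript length (circles joined within a group) and for the 17 core (diamonds) and 17 19S genes (squares). Core genes stand at 0.28 in GsMTx4 3, where transcripts under 1000 bases stand at 0.18 and those of 4000 bases and over at -0.21.

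Proteasome genes with other symbols gave 0 calls among 8 tested in each comparison, where 17.1% of all tested genes were called in DSS against Control, 12.3% in GsMTx4 against DSS and 0.237% in GsMTx4 against Control. Pomp, the maturation factor of the core, was at 15.4 ± 4.28 FPKM in GsMTx4, 16.3 ± 2.91 in DSS and 15.1 ± 1.88 in Control (SD, n = 3). Adrm1, a ubiquitin receptor of the cap, was at 11.6 ± 0.422 FPKM in GsMTx4, 15.1 ± 1.44 in DSS and 13.3 ± 0.343 in Control, with -0.35 ± 0.11 in GsMTx4 against DSS (adjusted p = 0.0792) and -0.18 ± 0.11 in GsMTx4 against Control (adjusted p = 0.631). Ecpas, a scaffold that joins core and cap, gave -0.49 ± 0.17 in DSS against Control (adjusted p = 0.0713) and 0.43 ± 0.17 in GsMTx4 against DSS (adjusted p = 0.122). Uchl5, a deubiquitinase of the cap, gave -0.39 ± 0.16 in DSS against Control (adjusted p = 0.118). Akirin2, which brings proteasomes into the nucleus, gave -0.32 ± 0.14 in GsMTx4 against Control (adjusted p = 0.478).

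Of the 15 tested genes for ubiquitin, its shuttles and the transcription factors of proteasome genes, 1 fell in DSS against Control, where 17.1% of all tested genes were called, and none was called in GsMTx4 against DSS (12.3% of all genes) or GsMTx4 against Control (0.237%). Ubqln4, a shuttle that carries tagged proteins to the proteasome, was at 9.97 ± 1.76 FPKM in DSS and 15.0 ± 0.278 in Control, a fold change of -0.56 ± 0.16 (adjusted p = 0.0419), and gave 0.39 ± 0.16 in GsMTx4 against DSS (adjusted p = 0.139). Nfe2l1, the factor that raises proteasome genes when proteasome capacity is short, was at 16.2, 12.1 and 9.99 FPKM in GsMTx4 libraries, 10.1, 9.53 and 37.1 in DSS libraries and 11.5, 11.3 and 11.4 in Control libraries. DSS 3 stood apart from the other 8 libraries. No core subunit was highest there, and a link between Nfe2l1 RNA and the core subunits was not tested. Nfe2l2, the stress factor NRF2, gave -0.24 ± 0.13 in DSS against Control (adjusted p = 0.222), Rps27a, a ubiquitin fusion gene, 0.50 ± 0.26 in GsMTx4 against DSS (adjusted p = 0.229), and Ubd and Ngly1 1.23 ± 0.61 and 0.18 ± 0.12 in GsMTx4 against Control (adjusted p = 0.539 and 0.653). Nfe2l3 was under the filter.

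The interferon regulators and genes of class I peptide loading, which share control with the inducible subunits in textbook accounts, were a further list. Of 13 tested, 1 rose and 2 fell in DSS against Control, where 17.1% of all tested genes were called. Nlrc5, the transactivator of class I genes, fell to 10.3 ± 2.17 FPKM in DSS, against 18.6 ± 2.78 in Control (log2 fold change -0.80 ± 0.18, adjusted p = 0.0171). Erap1, which trims peptides, fell to 11.4 ± 1.55 FPKM, against 17.7 ± 0.785 (-0.60 ± 0.15, adjusted p = 0.0290), and Calr, a chaperone of class I loading and of protein folding at large, rose to 301 ± 23.6 FPKM, against 179 ± 28.5 (0.76 ± 0.20, adjusted p = 0.0313).

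Tap1, which shares promoter DNA and an exon stretch of 212 bases with Psmb9, gave -0.56 ± 0.22 in DSS against Control (adjusted p = 0.114). Every DSS library lay below every Control library, as for Psmb9. Of all tested genes, 47.1% had groups that did not overlap in this comparison, and 4818 of 14360 lay below. Tap2, from the same region, gave -0.22 ± 0.16 with overlapping groups (adjusted p = 0.351). Irf1 gave -0.33 ± 0.31 (adjusted p = 0.457). In GsMTx4 against DSS, 1 of the 13 was called, where 12.3% of all tested genes were: H2-K1, a class I heavy chain, fell to 384 ± 18.0 FPKM in GsMTx4, against 596 ± 87.6 in DSS (-0.62 ± 0.17, adjusted p = 0.0480), and H2-D1 gave -0.65 ± 0.20 (adjusted p = 0.0626). None of the 13 was called in GsMTx4 against Control, where H2-K1 gave -0.77 ± 0.17 (adjusted p = 0.212) and Nlrc5 -0.73 ± 0.18 (adjusted p = 0.242).

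Some levels are uncertain because exons overlap those of other genes and the strand of the libraries is not given in the sources used here. The lengths given are those of the longest single shared stretch. On opposite strands, Psmd9 shares 1849 bases with Gm26745, Psmc3ip 385 with Mlx and Psmd13 329 with Sirt3. Psmb8 shares 259 with the antisense gene Gm20496, Psmb7 253 with Nek6, Psmd1 252 with Htr2b and Psmb9 212 with Tap1, also on opposite strands. Reads from these stretches cannot be assigned to either gene without strand. Psmg3 shares 280 bases with Gm26938 and Psmd1 154 with Gm21972 on the same strand, where strand would not separate the genes. Shorter stretches of other genes are not listed.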

How the data were processed

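Total RNA of 9 mouse colon libraries was sequenced, and the authors deposited FPKM values for 35315 genes. The submitters' processing notes name cutadapt, FastQC and GRCm38. Which aligner and FPKM program were used is not given in the sources used here, nor is strand. FPKM hold no depth, so no count test was run. Symbols came from GENCODE M21 (35196 genes). limma 3.58.1 in R 4.3.3 fitted log2(FPKM + 1) of all 9 libraries, 1 mean a group, with a trend and two-sided tests, for the 14360 genes at 1 FPKM or more in 3 or more libraries. Fold changes understate low genes. Ratios were tested by exact permutation in scipy 1.17.1. The fit was tested on simulated data. Deviations of same-numbered libraries had correlations of -0.23 to 0.10, and the numbers were not taken as pairs in the main fit. Such correlations cannot exclude a weak shared litter, day or batch. Named genes: the catalytic and PA28 genes, and per comparison the 4 lowest p in each direction; of other lists, the 2 lowest p, every called gene and 7 regulators, 1 of which is not reported here. Genes and lists were chosen with earlier results of these data known. Alternatives were pseudocounts, filters, TPM, median-of-ratios and quantile scaling, compared groups only, a replicate block and leaving out each library.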

Additional observations from a re-analysis of the deposited data

How the results depend on the processing

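The count of proteasome genes called lower in DSS against Control was 0 and became 1 with a filter at a mean FPKM of 5 (Psmg1), 4 after TPM rescaling (Psma1, Psme1, Psmg1, Psmg2), 2 after quantile normalization (Psma1, Psme1) and 3 in a fit of the compared groups only (Psma1, Psmg1, Psmg2). Leaving out each library in turn gave 0 to 3, with 3 without GsMTx4 1 or without GsMTx4 3. Without Control 1, DSS 2 and GsMTx4 3 together it was 1 (Psmb9, -0.80, adjusted p = 0.0382); these libraries were picked after seeing the core values, so the remaining spread is smaller by construction. The count called higher in GsMTx4 against DSS was 0 and became 1 without GsMTx4 1 (Psmg2, 0.68, adjusted p = 0.0311), 0 to 1 over the libraries left out. The other counts stayed at 0 under every alternative run. The replicate block gave 0 calls in each comparison.

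TPM, median-of-ratios and quantile scaling shifted the all-gene median in DSS against Control by -0.11, 0.16 and 0.11, and TPM shifted that in GsMTx4 against Control by -0.11. The proteasome median in DSS against Control was -0.14, 0.13 and -0.04 under them, so its sign depends on the scaling. Leaving out each library moved the log2 ratio differences as follows. Psmb8 over Psmb5 lay at -0.53 to -0.14 in DSS against Control, -0.085 to 0.34 in GsMTx4 against DSS (negative without DSS 1, -0.055, or GsMTx4 3, -0.085) and -0.38 to -0.03 in GsMTx4 against Control. Psmb9 over Psmb6 lay at -0.90 to -0.59, 0.12 to 0.50 and -0.62 to -0.26 in the same order. Psmb10 over Psmb7 lay at -0.16 to 0.14 (positive without Control 3, 0.055, or DSS 1, 0.14), -0.24 to 0.056 (positive without DSS 2, 0.056, or GsMTx4 2, 0.040) and -0.18 to 0.023 (positive without GsMTx4 2, 0.023). The cause of these changes was not tested. Of 2865 values of single genes under alternatives, 18 newly passed, 0 lost a call and 257 changed sign, the largest of those at 0.26 in the fit as reported. Depth is unknown, so no floor can be given for Psma8 and Psmb11.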

Other observations

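Interferon gamma and the ubiquitin-like gene Ubd, an interferon target, are given here by library after their values were seen. Ifng was at 1.76, 1.07 and 4.01 FPKM in GsMTx4 libraries, 0.639, 3.29 and 1.18 in DSS libraries and 3.13, 2.73 and 3.17 in Control libraries. Ubd was at 200, 107 and 402 FPKM in GsMTx4 libraries, 80.6, 290 and 132 in DSS libraries and 72.5, 54.7 and 163 in Control libraries. Both were highest in GsMTx4 3 and in DSS 2 within their groups, as were Psme2 and all 17 tested core subunits, inducible and constitutive. Of all tested genes, 32.0% were highest in GsMTx4 3 and 23.3% in DSS 2 within their groups. GsMTx4 3 and DSS 2 also had the highest FPKM sums of their groups. In Control, Ifng and Ubd were highest in Control 3, while Psme2 and the core subunits were highest in Control 1. Neither Ifng nor Ubd was called in any comparison.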
